A study of Mus musculus with 30 samples.

Results

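The genes described here encode fibrillar, basement membrane and other collagen chains and the proteins that hydroxylate, fold, trim and cross-link them. They were chosen by name, and each was represented by the probe set, among those annotated to its symbol alone, with the highest mean over all arrays. Of 32 listed genes, 30 were measured in this way, out of 18193 genes on the array; Loxl2 and Adamts2 were not analysed here. Heart tests covered 29 of them, kidney tests 28 and brain tests 29, because Col8a2 (heart and kidney), P4ha3 (kidney) and Col14a1 (brain) did not pass the filter on low values.

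RNA was taken from male C57BL/6 mice aged 8 to 10 weeks. Angiotensin II is a peptide hormone that constricts vessels and raises blood pressure. The day 0 mice had received none, and all others had received it at 1500 ng per kg per minute from an osmotic pump. Tissues were collected at day 0 and after 1, 3 or 7 days of infusion. Of 30 arrays in 15 groups, 12 were of heart (3 per time), 8 of kidney (2 per time), 6 of brain (2 per time, at days 0, 3 and 7) and 4 of vessel (1 per time). It is not stated whether a mouse gave more than 1 organ, whether pumps were in place at day 0, or which vessel was taken. Values are intensities on a linear scale, array medians lay between 35.2 and 37.8, and precision is limited by how few arrays each group has. Differences are on the scale of log2(intensity + 16), which understates changes of dim probe sets.

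Collagens are secreted as procollagen chains that wind into helical molecules in the endoplasmic reticulum. Prolyl and lysyl hydroxylases modify the chains there and the chaperone HSP47, encoded by Serpinh1, binds the folded helix; outside the cell, proteinases remove the propeptides and lysyl oxidases start the cross-links that hold fibrils together. Fibrillar types I, III and V carry tension in heart and vessel wall, while type IV forms the network of basement membranes around muscle cells and capillaries. Sustained angiotensin II is known as a stimulus of collagen deposition in the heart and around its vessels.

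Tissue identity was checked on marker genes. Cardiomyocyte markers were bright in heart, proximal tubule markers in kidney and neuronal markers in brain. The vessel arrays held smooth muscle markers together with brown fat and cardiac ones. Several arrays stood apart from others of their group. Adipocyte markers were high on both day 1 kidneys and on day 3 kidney replicate 2, and adrenal cortex markers on replicate 2 of the day 0 and day 3 kidneys. Brain day 0 replicate 2 was high in the neutrophil genes S100a8 and S100a9, choroid plexus markers differed widely between brains, and vessel day 3 was low in cardiomyocyte markers. Their values stand beside the results that they touch. In such bulk tissue, fewer cells of a type and less RNA per cell cannot be told apart.

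Before infusion the genes were at their highest in vessel for 23 of 30 and at their lowest in brain for 24 of 30. The order vessel, heart, kidney, brain held for 17 genes, among them 5 of the 6 fibrillar chains, Col4a1, Col4a2, the 3 type VI chains and the 3 lysyl oxidases. Col3a1, the chain of type III collagen, had an intensity of 9125 in vessel, 2862, 2529.6 and 5029 in heart, 952 and 1135 in kidney and 176 and 311 in brain. These ranges did not overlap between tissues. The type IV chain Col4a1 read 2759.7 in vessel, 1612, 1536 and 1321 in heart, 908 and 779 in kidney and 149 and 139 in brain, again without overlap. Among the exceptions to that order, Col8a1, P4ha2, P4ha3 and Plod1 were at their highest in heart, P4ha1 and Plod2 in kidney, and Col8a2 in brain. The others were highest in vessel. Of those, Col12a1 and Col18a1 were at their lowest in heart and Col1a1 and Bmp1 in kidney, while Col14a1 and Pcolce were lowest in brain.

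**Figure D1:**
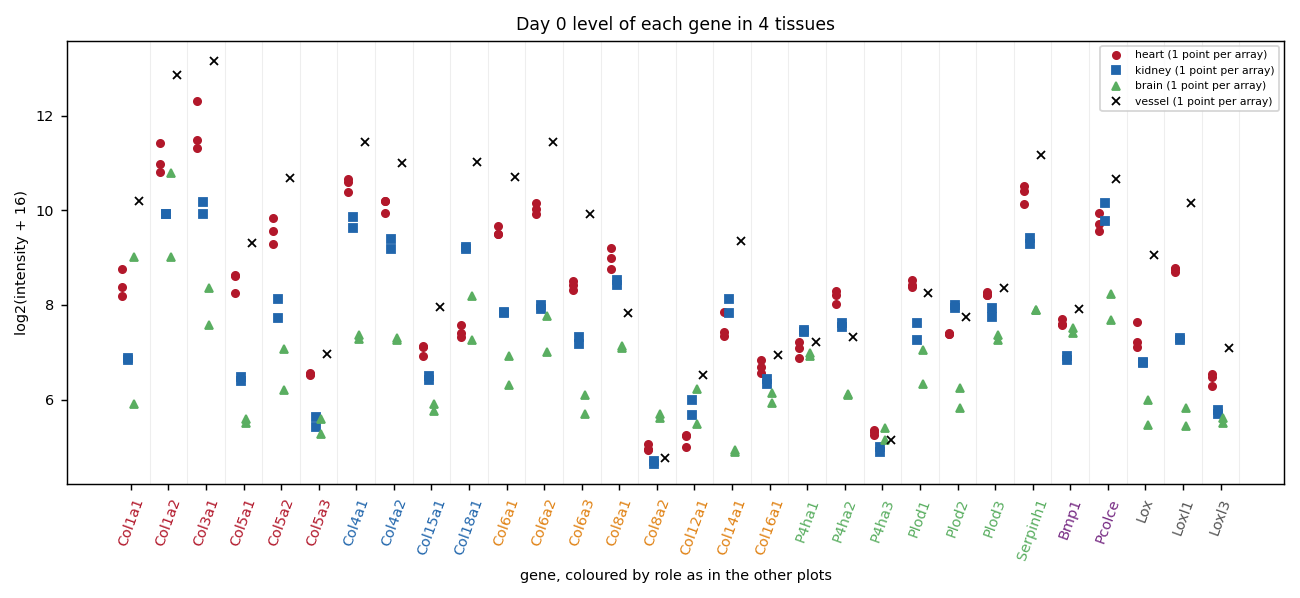
Day 0 value of 30 genes in heart (3 arrays), kidney (2), brain (2) and vessel (1), as log2(intensity + 16), with 1 point per array and gene names coloured by role. Vessel was the highest tissue for 23 of the 30 genes and brain the lowest for 24, and levels are to be compared within a gene only.

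At day 0, limma with Benjamini-Hochberg adjustment over all genes called 21 of 29 genes higher and 2 lower in heart than in kidney, where 28.6% and 27.2% of all genes were called. Against brain, heart was higher in 23 of 30 and lower in 1, beside 37.7% and 35.1% of all genes. In kidney against brain, 20 of 30 were higher and 3 lower (Col8a2, Bmp1 and P4ha3), beside 33.7% and 32.3%. A gene entered these comparisons if it passed the filter in either tissue. P4ha3 passed in heart and brain but not in kidney, Col8a2 in brain but not in heart or kidney, and Col14a1 not in brain. Calls of these genes against a tissue where they did not pass are no independent support. The largest heart excess over kidney was that of the type VI chain Col6a2, at 2.09 ± 0.23 (SE, adjusted p = 1.59e-07), and the largest over brain that of Col3a1, at 3.73 ± 0.45 (SE, adjusted p = 4.40e-07). Col18a1, whose product is cleaved to endostatin, was lower in heart than in kidney, at -1.77 ± 0.22 (SE, adjusted p = 1.25e-06). Plod2, which hydroxylates the lysines at the ends of collagen chains, was also lower, at -0.57 ± 0.19 (SE, adjusted p = 0.0147). Type I collagen chains could not be placed between heart and brain as firmly, since Col1a1 in the day 0 brains was 44.0 and 501 and its difference was 0.99 ± 0.58 (SE, adjusted p = 0.128). In both directions together the heart against kidney count was 23. It was 19 to 22 with 1 day 0 heart left out, beside 7581 to 7755 of all genes, against 8202 with every array. Kidney day 0 replicate 2 carried adrenal markers and replicate 1 did not. Leaving out either leaves 1 array in that group, and those counts are not given.

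The first question of the series is how each tissue changes over 7 days of infusion. In heart, an F test over the 3 days called 12 of 29 genes, against 6.55% of all 14040 genes tested. The 12 were 5 of 6 fibrillar chains (Col1a1, Col1a2, Col3a1, Col5a1 and Col5a2), 5 of 7 other collagens (Col6a1, Col6a2, Col6a3, Col8a1 and Col14a1), Pcolce and Lox. None of 4 basement membrane chains and none of 7 hydroxylase and chaperone genes passed. Col8a1 and Pcolce passed in all 12 fits that left out 1 heart. Removing day 0 replicate 1, day 0 replicate 2 or day 3 replicate 2 left 6 calls each, and removing day 1 replicate 1 left 2. Removing day 3 replicate 1 gave 22 calls, beside 1399, and removing any of the others gave 8 to 17, beside 176 to 2671. The group mean peaked at day 3 in 24 of 29 genes, at day 1 in 3 and at day 7 in 2. Its lowest point was day 0 in 16 genes, day 1 in 11 and day 7 in 2.

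**Figure D2:**
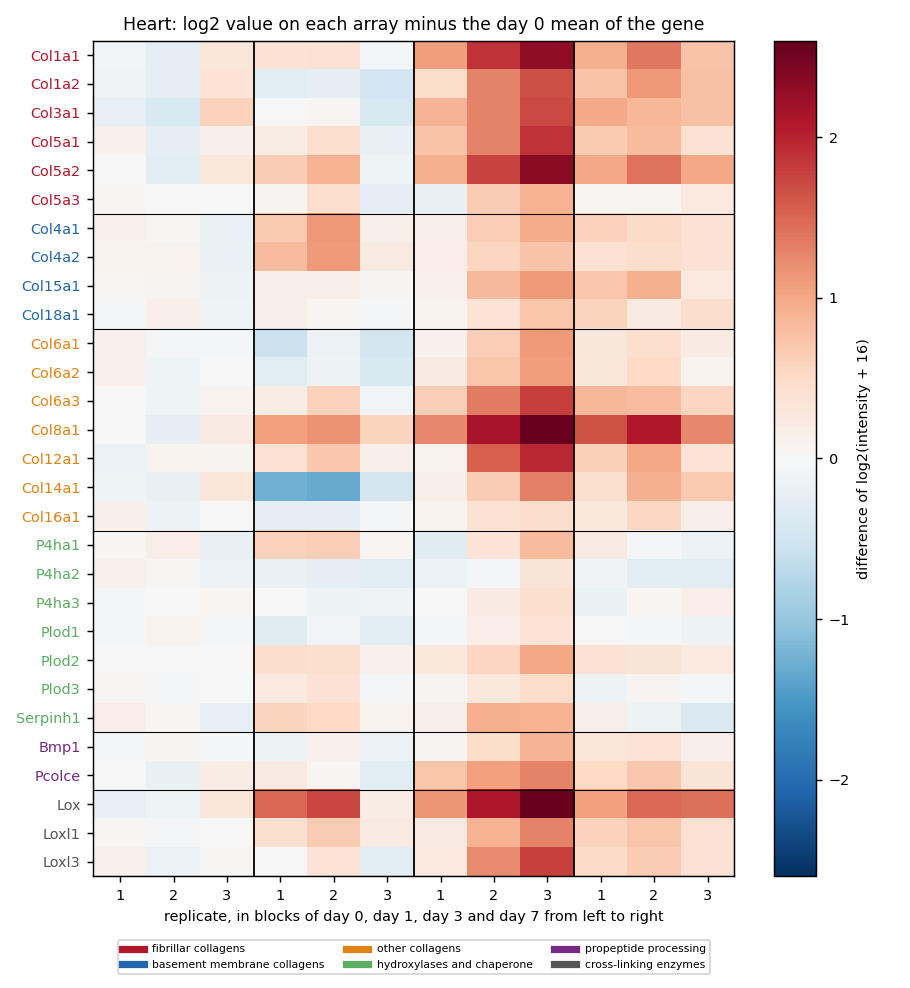
Each cell is the log2(intensity + 16) of a gene on a heart array minus that gene's day 0 mean, for 29 genes (rows, coloured by role) and 12 arrays (columns, 3 replicates in each block of day 0, 1, 3 and 7). Most rows are darkest red on day 3 replicate 3, which was the highest of all 12 arrays in 25 genes, while Col14a1 is blue on day 1 and Col4a1 and Col4a2 are reddest on day 1 replicate 2.

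Fibrillar collagen chains differed little from day 0 after 1 day and stood above it after 3 and 7 days, and of these only Col1a1 at day 3 passed the test against day 0. Col1a1, a chain of the main fibril-forming collagen, had heart intensities of 318, 278 and 419.6 on day 0, 438, 443 and 321 on day 1, 723, 1273 and 1720.4 on day 3 and 655, 892 and 569 on day 7. All 3 day 3 and all 3 day 7 hearts lay above every day 0 heart, and day 1 overlapped day 0. Its difference from day 0 was 1.76 ± 0.27 (SE, adjusted p = 0.0332) at day 3 and 1.02 ± 0.27 (SE, adjusted p = 0.345) at day 7 by limma.

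Col1a2, the partner chain of Col1a1 in type I collagen, had 1998, 1766 and 2713 on day 0, 1734, 1795 and 1495 on day 1, 2976, 5247 and 6783 on day 3 and 3555, 4667 and 3613 on day 7. The day 1 hearts overlapped the lower end of day 0. Col3a1 had 2862, 2529.6 and 5029 on day 0, 3308, 3437 and 2469 on day 1, 6090.1, 8105 and 10913 on day 3 and 6605, 6083 and 5619.7 on day 7, and its day 0 replicate 3 stood well above the other two. Both genes were above day 0 in every heart of days 3 and 7, at 1.15 ± 0.25 (SE, adjusted p = 0.106) for Col1a2 and 1.29 ± 0.25 (SE, adjusted p = 0.0671) for Col3a1 at day 3, short of the threshold. Their second brightest probe sets gave 2.07 for Col1a2 and 2.31 for Col3a1. The dimmest of the 3 Col1a2 probe sets gave 0.06.

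Type V chains, which govern how fibrils start and how thick they grow, had the same order of days for Col5a1 and Col5a2. Col5a2 had 741, 607 and 895 on day 0, 1180.0, 1387 and 686 on day 1, 1430.4, 2538 and 3822 on day 3 and 1499, 1997 and 1502 on day 7, and its day 3 difference was 1.68 ± 0.31 (SE, adjusted p = 0.0659). All day 3 and day 7 hearts were above day 0, and day 1 replicates 1 and 2 were too. Col5a1 had 375, 290.4 and 383 on day 0, 400.5, 475 and 299.6 on day 1, 589.7, 868 and 1324 on day 3 and 567, 630.1 and 461 on day 7, without overlap between day 3 and day 0, and a day 3 difference of 1.30 ± 0.24 (SE, adjusted p = 0.0659). The other probe sets of Col5a1 gave 1.20 and 0.27 at day 3. Col5a3 had the smallest day 3 difference of the fibrillar chains, with 65.0, 130.2 and 159 on day 3 against 78.5, 75.9 and 76.6 on day 0 and a difference of 0.45 ± 0.23 (SE, adjusted p = 0.469); day 3 replicate 1 was below day 0. Over the 6 fibrillar chains the median difference was 0.12 at day 1, 1.30 at day 3 and 0.88 at day 7, beside a median of all genes of -0.02 on each of the 3 days.

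**Figure D3:**
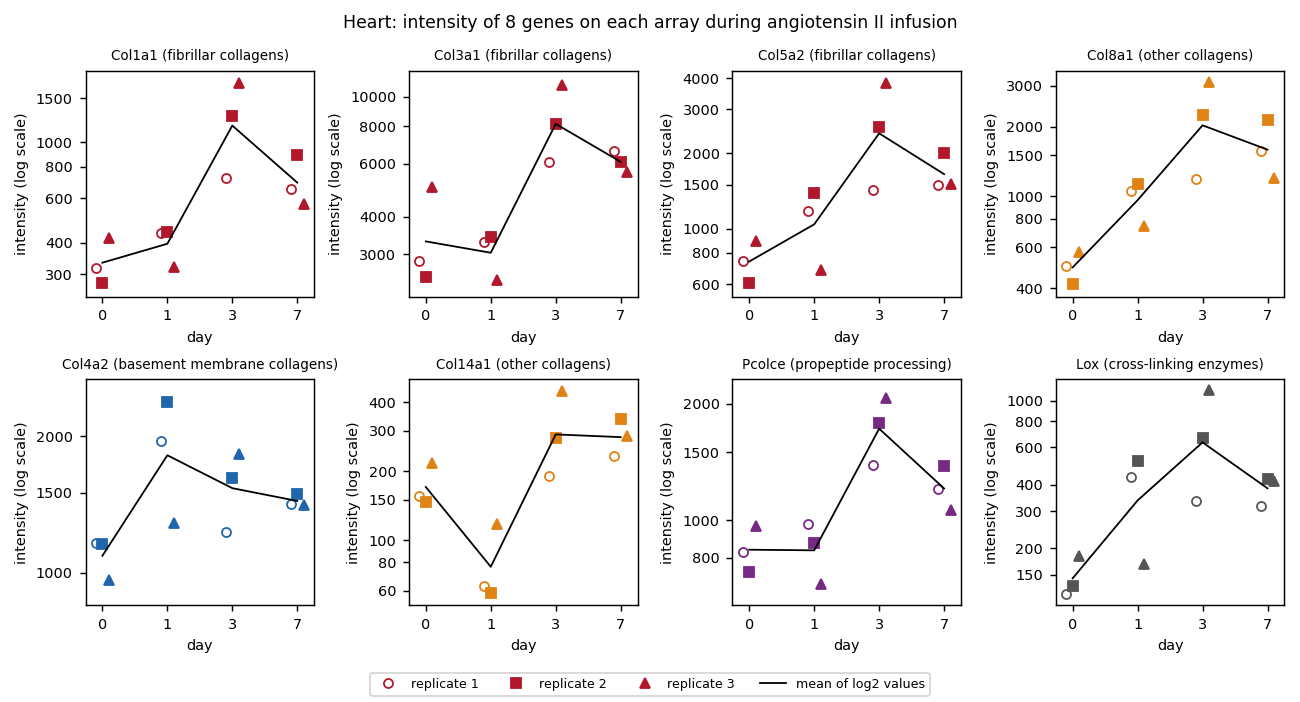
Heart intensity on a log scale for 8 genes by day, with an open circle, a filled square and a filled triangle for replicates 1, 2 and 3, days evenly spaced, and a line through the mean of log2 values. Col1a1, Col3a1, Col5a2, Col8a1, Pcolce and Lox have their highest mean on day 3, Col4a2 has it on day 1, and the day 1 hearts of Col14a1 all lie below its day 0 hearts.

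Promoter sequence is shown for genes called in heart that have an entry in the RefSeq promoter table (GRCm38.p6), as 3 fibrillar chains, the non-fibrillar chain with the largest day 3 rise and the propeptide enhancer. Each is the 250 bases before the start that the promoter table gives, 5′ to 3′ on the gene's strand. By the annotated gene ranges, Col5a1 starts at 27886381 and Pcolce at 137611522. Both lie inside the printed windows, so that part of each window falls within the annotated gene. Capitals mark, on either strand, the letters of 6 motifs searched for. These were CCAAT (the CCAAT box), TATAAA (the TATA box), CAGACA (whose letters SMAD proteins bind), GGGCGG (the GC box), ACGTG (the core of hypoxia response elements) and TGACGT (part of the cyclic AMP response element), of which the last and the hypoxia core can overlap. Col1a2 is at chr6:4505368-4505617 on the plus strand, Col3a1 at chr1:45311288-45311537 on the plus strand, Col5a1 at chr2:27886175-27886424 on the plus strand, Col8a1 at chr16:57754738-57754987 on the minus strand and Pcolce at chr5:137611405-137611654 on the minus strand.
Col1a2: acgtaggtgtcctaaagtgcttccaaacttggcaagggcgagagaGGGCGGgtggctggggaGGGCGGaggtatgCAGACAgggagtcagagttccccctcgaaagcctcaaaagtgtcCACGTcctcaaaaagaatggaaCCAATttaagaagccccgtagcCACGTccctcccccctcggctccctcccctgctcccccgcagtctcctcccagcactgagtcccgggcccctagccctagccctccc
Col3a1: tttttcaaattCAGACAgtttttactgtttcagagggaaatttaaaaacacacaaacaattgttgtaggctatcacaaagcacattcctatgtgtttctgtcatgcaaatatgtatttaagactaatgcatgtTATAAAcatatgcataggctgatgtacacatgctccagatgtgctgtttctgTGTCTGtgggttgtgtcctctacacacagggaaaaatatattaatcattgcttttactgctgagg
Col5a1: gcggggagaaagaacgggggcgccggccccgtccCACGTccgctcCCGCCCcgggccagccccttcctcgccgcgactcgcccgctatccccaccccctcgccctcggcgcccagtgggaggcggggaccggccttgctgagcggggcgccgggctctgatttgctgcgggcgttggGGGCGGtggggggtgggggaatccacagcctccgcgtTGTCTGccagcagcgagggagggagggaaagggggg
Col8a1: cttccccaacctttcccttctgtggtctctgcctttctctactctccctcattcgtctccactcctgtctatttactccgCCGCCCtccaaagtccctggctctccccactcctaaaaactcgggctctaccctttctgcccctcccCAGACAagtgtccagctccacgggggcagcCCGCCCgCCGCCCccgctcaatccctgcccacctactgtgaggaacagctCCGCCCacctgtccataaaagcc
Pcolce: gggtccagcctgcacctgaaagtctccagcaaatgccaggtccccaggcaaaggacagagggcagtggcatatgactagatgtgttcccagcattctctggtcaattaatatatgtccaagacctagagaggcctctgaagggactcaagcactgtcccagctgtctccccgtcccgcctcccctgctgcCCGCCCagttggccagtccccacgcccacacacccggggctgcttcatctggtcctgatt
CAGACA is in the Col1a2, Col3a1, Col5a1 and Col8a1 windows and not in that of Pcolce. Counted over the window that the table lists first for each gene, it is in 5 of the 22 listed genes with a window (a second Col18a1 window also holds it) and in 17.1% of all 32851 promoter windows. GGGCGG is in 16 of the 22 against 32.7%, and CCAAT in 7 against 33.8%. TATAAA is in 2 of the 22 (12.4% of all), ACGTG in 6 (16.6%) and TGACGT in 0 (6.47%). A match is a run of letters and no evidence of binding, and the printed genes were chosen after their values were seen.

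Among non-fibrillar collagens, Col8a1 had the largest rise. It encodes a chain of the network-forming type VIII collagen of vessel walls. Its heart intensities were 496, 417 and 573 on day 0, 1050.0, 1132 and 746 on day 1, 1190.3, 2236 and 3121 on day 3 and 1576, 2135 and 1193 on day 7. Every infused heart, from day 1 on, was above every day 0 heart. The difference was 0.94 ± 0.30 (SE, adjusted p = 0.0539) at day 1, 2.01 ± 0.30 (SE, adjusted p = 0.0332) at day 3 and 1.66 ± 0.30 (SE, adjusted p = 0.124) at day 7, so that day 3 alone passed the threshold in limma. Its 2 other probe sets gave 1.63 and 1.86 at day 3.

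Col14a1, a fibril-associated collagen, was the gene that fell on day 1 against day 0 and then had the largest rise of the set on day 3 against day 1. It read 156, 147 and 216 on day 0, 62.8, 58.9 and 118 on day 1, 191, 280.4 and 449.6 on day 3 and 232, 339 and 283 on day 7. The 3 day 1 hearts lay below all others, with day 1 replicate 3 nearest to them. Against day 0 the day 1 difference was -1.01 ± 0.28 (SE, adjusted p = 0.033) and the day 3 difference 0.71 ± 0.28 (SE, adjusted p = 0.336). On day 1 the second Col14a1 probe set gave -0.85 and the dimmest 0.11. Col12a1, of the same fibril-associated class, had 16.1, 21.8 and 21.3 on day 0, 30.9, 42.3 and 23.0 on day 1, 22.1, 87.9 and 122 on day 3 and 39.1, 55.7 and 29.9 on day 7. All its day 0 values were below the filter level, which lay between 22.8 and 26.6 across arrays. It was thus tested in heart only through infused hearts, and its rise is no independent support. Its day 3 difference was 1.20 ± 0.35 (SE, adjusted p = 0.217) on that probe set, with replicate 1 close to day 0, and 0.09 or less on its other 3.

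Type VI chains form beaded filaments near cell surfaces. Col6a3 read 327, 301 and 347 on day 0, 372, 501 and 310.3 on day 1, 517, 854 and 1175 on day 3 and 605, 576 and 487 on day 7, with a day 3 difference of 1.27 ± 0.24 (SE, adjusted p = 0.0659). Col6a1 and Col6a2 had smaller day 3 differences of 0.62 ± 0.20 (SE, adjusted p = 0.245) and 0.68 ± 0.18 (SE, adjusted p = 0.164). On day 1 all hearts of both these genes were below day 0, at -0.39 ± 0.20 (SE, adjusted p = 0.214) and -0.27 ± 0.18 (SE, adjusted p = 0.372). Both exceeded day 0 in 2 of 3 (Col6a1) and 3 of 3 (Col6a2) day 3 hearts. Col16a1, another fibril-associated chain, lay between 71.4 and 133 across the 12 hearts. Col8a2 was too dim to be tested in heart.

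Among basement membrane chains, Col4a2 was the gene called at day 1, and Col4a1 and Col4a2 had their highest mean on that day. Col4a2 had heart intensities of 1165, 1155 and 963 on day 0, 1952, 2383 and 1286 on day 1, 1229, 1618 and 1823 on day 3 and 1415, 1496 and 1412 on day 7. Its 3 day 1 hearts were above all day 0 hearts, with replicate 3 the lowest of them. The day 1 difference was 0.73 ± 0.19 (SE, adjusted p = 0.0285), and at day 3 it was 0.49 ± 0.19 (SE, adjusted p = 0.339). Col4a1 had 1612, 1536 and 1321 on day 0, 2404, 3269 and 1641 on day 1, 1649, 2309 and 2893 on day 3 and 2252, 2103 and 1922 on day 7 and a day 1 difference of 0.65 ± 0.23 (SE, adjusted p = 0.0746), short of the threshold. The starts of these genes in the promoter table lie 21 bases apart on opposite strands of chromosome 8 (GRCm38.p6). By the annotated gene ranges Col4a1 starts at 11312889 and Col4a2 at 11312805. Col15a1 and Col18a1, of the zone beneath the basement membrane, were at 0.13 ± 0.21 (SE, adjusted p = 0.77) and 0.05 ± 0.15 (SE, adjusted p = 0.872) on day 1.

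Of the processing genes, Pcolce passed the test on day 3. It encodes the enhancer of the C-propeptide proteinase and had 827, 736 and 968 on day 0, 976, 874 and 684 on day 1, 1389, 1785 and 2063 on day 3 and 1202, 1377 and 1064 on day 7. Day 3 and day 7 hearts were all above day 0, and the difference was 1.03 ± 0.17 (SE, adjusted p = 0.045) at day 3. Bmp1, the proteinase itself, was at 0.48 ± 0.16 (SE, adjusted p = 0.279), and its dimmer probe sets gave 0.03 and -0.07. Lox, the main lysyl oxidase, read 122, 133 and 184 on day 0, 433, 517 and 168 on day 1, 336, 669 and 1126 on day 3 and 318, 427 and 417 on day 7. The day 3 and 7 hearts exceeded all of day 0, and on day 1 replicates 1 and 2 were high while replicate 3 lay within the day 0 range.

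For Lox the difference was 1.14 ± 0.41 (SE, adjusted p = 0.0823) at day 1, 2.02 ± 0.41 (SE, adjusted p = 0.0814) at day 3 and 1.32 ± 0.41 (SE, adjusted p = 0.411) at day 7. At day 3 the second Lox probe set gave 2.18 and the dimmest 0.10. Loxl1 and Loxl3 were at 0.81 ± 0.21 (SE, adjusted p = 0.164) and 1.08 ± 0.28 (SE, adjusted p = 0.164) on day 3. The prolyl hydroxylase subunits stayed closer to day 0: P4ha1 at 0.29 ± 0.24 (SE, adjusted p = 0.702), P4ha2 at 0.04 ± 0.12 (SE, adjusted p = 0.937) and P4ha3 at 0.21 ± 0.12 (SE, adjusted p = 0.508). Among lysyl hydroxylases Plod2 had the largest difference, 0.61 ± 0.15 (SE, adjusted p = 0.161). Serpinh1, the HSP47 chaperone, had 1446, 1338 and 1108 on day 0, 1933, 1854 and 1379.9 on day 1, 1411, 2495 and 2442 on day 3 and 1434, 1173 and 992 on day 7, so that day 3 replicate 1 and the day 7 hearts overlapped day 0. The 7 hydroxylase and chaperone genes had medians of 0.21, 0.28 and -0.03 at days 1, 3 and 7. The 3 lysyl oxidases had 0.44, 1.08 and 0.57.

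In counts, limma called 1 of 29 genes higher (Col4a2) and 1 lower (Col14a1) at day 1, where 4.86% of all genes were called higher and 8.57% lower. At day 3 it called 3 of 29 higher (Col1a1, Col8a1 and Pcolce) and 0 lower, where 0.0712% of all genes were called higher and 0.0142% lower. An unadjusted p under 0.05 was found for 24 of 29 at day 3, beside 1681 of all 14040 genes. The sign was positive in 29 of 29, beside 6418 of 14040, with a median of 0.68. Among the 29 is Col12a1, which passed the filter only through infused hearts. At day 7 it called 0, with 14 at an unadjusted p under 0.05, Col8a1, Col1a1 and Col5a2 first, beside 1247 of all genes, and a median of 0.49; 0.0427% of all genes were called higher and 0.00712% lower. Hearts did not overlap day 0 upward in 7 genes at day 1, 18 at day 3 and 22 at day 7, beside 11.4%, 7.4% and 9.28% of all genes. Col12a1 is counted on each of these days. Downward without overlap there were 5 at day 1, beside 18.4%, and 0 at days 3 and 7, beside 10.4% and 11.9%.

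These calls rested on few arrays. Day 3 replicate 1 was the lowest day 3 heart in 29 of 29 genes and replicate 3 the highest in 28, and on day 1 replicate 3 was the lowest in 24. The fibrillar median above the day 0 mean was 0.81, 1.29 and 1.80 on day 3 replicates 1, 2 and 3. With day 3 replicate 1 left out, 19 genes were called at day 3, beside 258 of all genes. With day 0 replicate 3 left out it was 1, beside 4, and that gene was not Col1a1, Col8a1 or Pcolce. With any of the other 4 arrays left out it was 0, beside 1 to 4. At day 1 the count was 5 without day 1 replicate 3, beside 3441 of all genes, and 0 without any other, beside 405 to 1452. Without a filter, with an added value of 64, with the mean of all probe sets or with a replicate block, 0 genes were called at day 3, beside 7 of all genes each time.

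Markers of other cells moved with these values. All 6 activated fibroblast markers were measured and summed to 6373, 11752 and 13581 on day 3 replicates 1, 2 and 3, against 5026 to 6634 on day 0. The 7 macrophage markers summed to 8213, 9575 and 12582, against 6587 to 8473. Both sums were in the replicate order of the collagens, and so were the general fibroblast, smooth muscle and endothelium sums. The 6 smooth muscle markers ran from 4410 on replicate 1 to 6024 on replicate 3, against 3763 to 4367 on day 0. The 6 endothelium markers ran from 1740 to 2503, against 2335 to 2697. On day 7 the activated fibroblast sums were 7100.2, 9469 and 7282, all above day 0, and the macrophage sums 7868, 11035 and 8905. On day 1 the activated fibroblast sums were 5011, 5281 and 5268 and the macrophage sums 9423, 11598 and 8148. Of the activated fibroblast markers limma called Cilp, at 1.80 ± 0.29 (SE, adjusted p = 0.045) on day 3. Of the macrophage markers it called 0 of 7, with 4 at an unadjusted p under 0.05. Acta2 and Postn were the brightest of the 6 activated fibroblast markers. Postn and Cilp exceeded every day 0 heart on all day 3 hearts, and Cthrc1 and Fap did not on replicate 1. Comp was below day 0 on replicates 1 and 2, at 100.6 and 142.7 against 154.7 to 189.6. Acta2 was below it on replicate 1, at 3041 against 3820 to 4376. On day 3 replicates 1, 2 and 3 the 9 general fibroblast markers summed to 16849, 17594 and 19965, against 17262 to 20747 on day 0. Within that sum Gsn was below every day 0 heart on day 3. Mfap5 was above every day 0 heart, at 978, 1502 and 2307 against 605 to 879. The 8 cardiomyocyte markers ran in the reverse order, from 115676 on replicate 1 to 107654 on replicate 3, against 114077 to 116448 on day 0. The part of these cells in the collagen result was not tested. On day 1 the 4 neutrophil markers measured summed to 4643, 6621 and 1404, against 209.6 to 1218 on day 0, with the lowest on replicate 3.

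Set against day 1 in place of day 0, 9 of 29 genes were higher at day 3 and 0 lower, where 2.83% of all genes were called higher and 1.47% lower. They were Col14a1 at 1.72 ± 0.28 (SE, adjusted p = 0.0122), Col1a1 at 1.52 ± 0.27 (SE, adjusted p = 0.015), Col1a2 at 1.49 ± 0.25 (SE, adjusted p = 0.0122), Col3a1 at 1.42 ± 0.25 (SE, adjusted p = 0.0148), Col5a1 at 1.16 ± 0.24 (SE, adjusted p = 0.0231), Col6a1 at 1.01 ± 0.20 (SE, adjusted p = 0.0185), Col6a2 at 0.95 ± 0.18 (SE, adjusted p = 0.0166), Col6a3 at 1.03 ± 0.24 (SE, adjusted p = 0.0337) and Pcolce at 1.03 ± 0.17 (SE, adjusted p = 0.0122). In Col1a1, Col3a1, Col5a1, Col6a1, Col6a2, Col6a3 and Pcolce, as in Col1a2 and Col14a1, each day 3 heart was above each day 1 heart. This comparison shares the day 3 hearts with that against day 0. Leaving out day 1 replicate 1 or day 3 replicate 2 gave 0 calls, beside 9 and 0 of all genes. Leaving out day 3 replicate 1 gave 19, beside 711, and a fit of the day 1 and day 3 hearts alone gave 0, beside 0. At day 7 against day 1, 4 were higher and 0 lower, beside 2.8% and 2.12% of all genes: Col14a1 at 1.69 ± 0.28 (SE, adjusted p = 0.0105), Col1a2 at 1.22 ± 0.25 (SE, adjusted p = 0.0207), Col3a1 at 1.00 ± 0.25 (SE, adjusted p = 0.0389) and Col16a1 at 0.49 ± 0.13 (SE, adjusted p = 0.0479). The count was 0 without day 1 replicate 1 or 2 or day 7 replicate 2, beside 11, 72 and 36 of all genes. It was 1 without day 7 replicate 1 or 3, beside 119 and 137, and 5 without day 1 replicate 3, beside 2482.

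Between day 7 and day 3 limma called 0 of 29 genes and 0 of all 14040 (0% higher and 0% lower), with 6 and 983 at an unadjusted p under 0.05. The sign was negative in 27 of 29, with a median of -0.30. Serpinh1 had the smallest p, with 1434, 1173 and 992 on day 7 against 1411, 2495 and 2442 on day 3 and a difference of -0.78 ± 0.21 (SE, adjusted p = 0.609). Leaving out day 3 replicate 1 gave 3 calls, beside 63 of all genes.

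Other genes of the pathway (15 further collagen chains and 21 further synthesis genes) were also tested in heart. On day 1, where 4.86% of all genes were called higher and 8.57% lower, 1 chain was higher and 1 lower: Col4a5 at 0.50 ± 0.15 (SE, adjusted p = 0.0425) and Col4a4 at -0.82 ± 0.18 (SE, adjusted p = 0.0138), both chains of type IV. Among synthesis genes 1 was higher and 1 lower on day 1. P4hb, the shared subunit of the prolyl hydroxylases, was at 0.58 ± 0.12 (SE, adjusted p = 0.00919), and Adamts3, an N-propeptidase, at -0.53 ± 0.13 (SE, adjusted p = 0.0239). At day 3 and at day 7 against day 0 limma called 0 of either list; at day 3 unadjusted p was under 0.05 for 1 of 15 chains and 8 of 21 synthesis genes, and at day 7 for 2 and 1, beside 1681 and 1247 of 14040 genes. Medians at day 3 were 0.08 and 0.30.

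In kidney no gene of the set was called at any day, with 9, 6 and 3 of 28 at an unadjusted p under 0.05 on days 1, 3 and 7. Of all 14214 genes, 0.26% were called higher and 0.239% lower on day 1, and 0% at days 3 and 7. An unadjusted p under 0.05 was found for 2311, 1202 and 950 of all genes on days 1, 3 and 7. Medians of the 28 genes were -0.05, 0.22 and 0.12. Kidneys did not overlap day 0 upward in 6, 12 and 12 genes on days 1, 3 and 7, beside 26.2%, 20.4% and 21.2% of all genes. Downward there were 9, 2 and 3, beside 22.7%, 16.3% and 15.3%. The genes with the smallest p on day 1 were Col14a1 and Col8a1. Col14a1 had kidney intensities of 261 and 212 on day 0, 111 and 132 on day 1, 173 and 179 on day 3 and 163 and 205 on day 7, and every infused kidney was below both day 0 kidneys. Its day 1 difference was -0.87 ± 0.14 (SE, adjusted p = 0.0606). Col8a1 had 326 and 354 on day 0, 620.1 and 566 on day 1, 543 and 410.0 on day 3 and 427 and 417 on day 7, with every infused kidney above day 0 and a day 1 difference of 0.77 ± 0.13 (SE, adjusted p = 0.0654).

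Plod2 was next, with 227 and 239 on day 0, 178 and 163 on day 1, 228 and 226 on day 3 and 220.0 and 235 on day 7; both day 1 kidneys were below day 0 and the difference was -0.42 ± 0.08 (SE, adjusted p = 0.089). Loxl1 had 136 and 142 on day 0, 203 and 216 on day 1, 143 and 192 on day 3 and 162 and 182 on day 7 and a day 1 difference of 0.54 ± 0.13 (SE, adjusted p = 0.132). At days 3 and 7 the smallest p belonged to Col12a1, which read 35.2 and 47.5 on day 0, 68.7 and 61.3 on day 1, 60.5 and 81.2 on day 3 and 75.5 and 79.1 on day 7. All 6 infused kidneys exceeded both day 0 kidneys; the day 7 difference was 0.71 ± 0.15 (SE, adjusted p = 0.693). Col3a1 differed widely within pairs. It read 952 and 1135 on day 0, 397 and 1035 on day 1, 751 and 2446 on day 3 and 909.9 and 2123 on day 7. The pairs of days 3 and 7 lay on either side of day 0, and the day 1 kidneys lay below and within it. Its day 3 difference was 0.38 ± 0.66 (SE, adjusted p = 0.918).

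The kidney arrays differed in adipocyte and adrenal markers. Adipoq was 2318 and 3335 on day 1 and 6176 on day 3 replicate 2, against 40.9 to 235 on the other kidneys. The 5 adipocyte markers measured summed to 1831 and 2058 on day 0, 13173 and 14497 on day 1, 1872 and 23188 on day 3, and 2094 and 2689 on day 7. The 6 adrenal cortex markers summed to 4345 on day 0 replicate 2 and 7781 on day 3 replicate 2, against 217 to 248 elsewhere. Their part was not tested. Without the day 0 and day 3 arrays that carried adrenal markers, an alternative added after the data were seen, limma called 0 on each day, and leaving out any other array of the groups compared also gave 0.

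In brain limma called no gene of the set on day 3 or day 7, with 4 and 2 of 29 at an unadjusted p under 0.05. It called 0% of all 14109 genes, with 1041 and 1006 at that unadjusted level. The median was -0.09 at day 3 and -0.08 at day 7, beside -0.02 and -0.04 over all genes. Brains did not overlap day 0 downward in 9 and 8 genes on days 3 and 7, beside 21.4% and 24.0% of all genes. Col8a2 is counted on both days. Upward there were 1 and 3, beside 15.4% and 16.3%. Bmp1 was the gene with the smallest p on day 7, with 166 and 154 on day 0, 123 and 110.3 on day 3 and 109 and 114 on day 7. All 4 infused brains were below both day 0 brains, at -0.41 ± 0.11 (SE, adjusted p = 0.662) on day 3 and -0.47 ± 0.11 (SE, adjusted p = 0.666) on day 7. Col8a2 had 32.9 and 35.8 on day 0, 11.1 and 20.1 on day 3 and 24.2 and 18.4 on day 7, and Col18a1 had 275 and 138 on day 0, 73.8 and 104 on day 3 and 156 and 96.5 on day 7. Both day 0 brains were above all others for Col8a2, while for Col18a1 day 0 replicate 2 was below day 7 replicate 1. Col8a2 passed the filter on both day 0 brains, while both day 3 brains and day 7 replicate 2 were below the filter level of 22.8 to 26.6. Its fall is thus no independent support. Serpinh1 was lower in all 4 infused brains too, with 221 and 223 on day 0, 155 and 185 on day 3 and 198 and 205 on day 7. Day 3 differences were -0.69 ± 0.18 (SE, adjusted p = 0.662) for Col8a2, -0.36 ± 0.12 (SE, adjusted p = 0.662) for Serpinh1 and -1.03 ± 0.37 (SE, adjusted p = 0.662) for Col18a1. At day 7 Col5a1 had 21.9 and 23.0, against 29.3 and 32.3 on day 0, and a difference of -0.28 ± 0.11 (SE, adjusted p = 0.666), which was 0.070 with the mean of all its probe sets. Under quantile normalization the day 7 median was -0.01 and 14 of 29 genes were positive, against 11 on the deposited scale.

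The 3 brains with the highest choroid plexus markers were also the 3 highest in Col18a1 and in Col8a2. Ttr was 20010.1 and 19361 on day 0, 81.5 and 2106 on day 3 and 18697 and 898 on day 7. The 6 markers of that list summed to 21198 and 20158, to 296 and 2492, and to 19297 and 1177 on those days. Col1a1 and Col1a2 in turn were high on day 0 replicate 2 alone, where Col1a1 read 501 against 44.0 to 63.3 on the other brains. That array also held S100a8 at 3658, against 132 to 384 elsewhere. These parts were not tested.

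**Figure D4:**
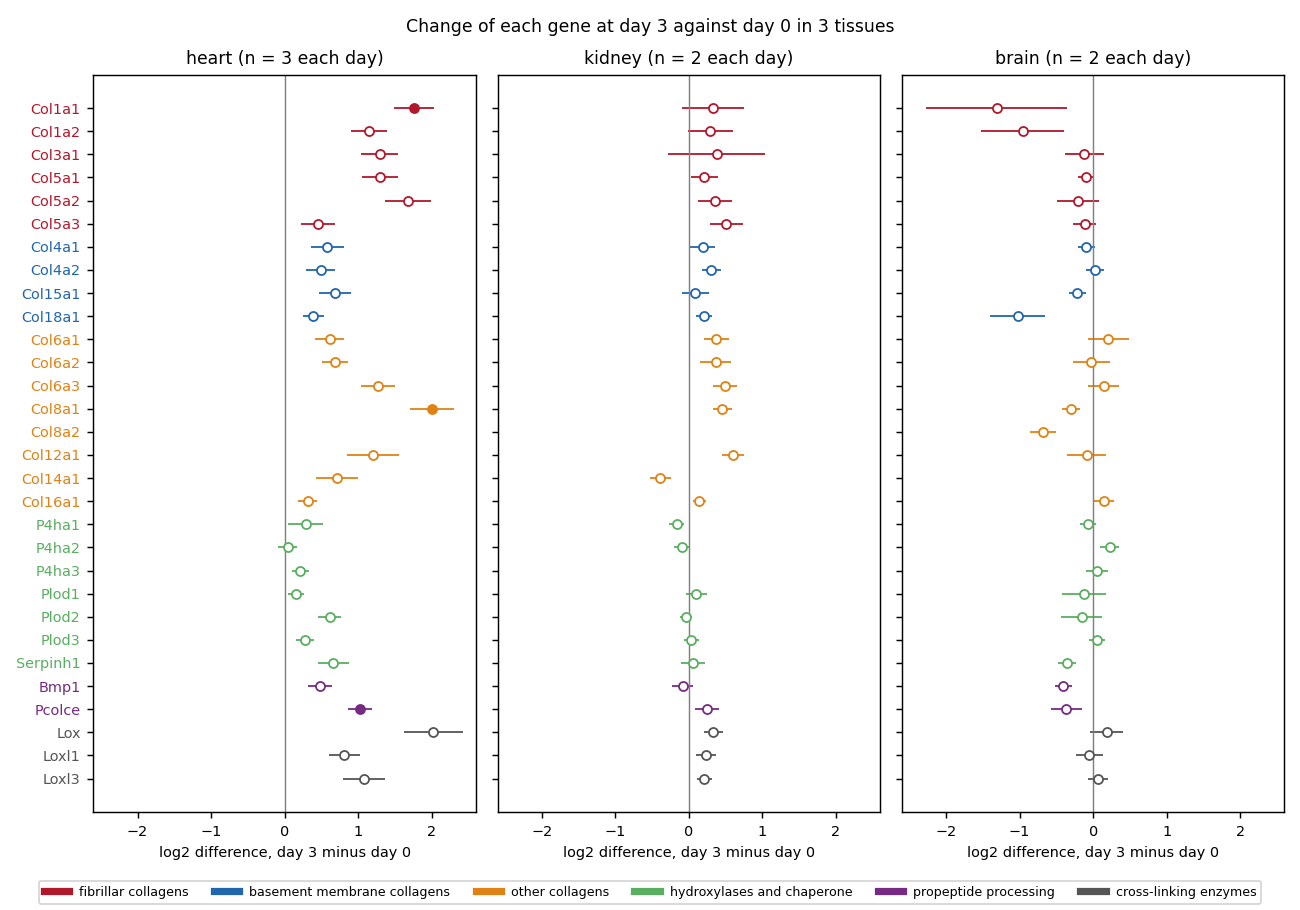
Difference of each gene between day 3 and day 0 in heart, kidney and brain, as log2(intensity + 16) with bars of 1 SE from the limma fit of that tissue; filled points passed an adjusted p of 0.05 and genes without a point were not tested there. All 29 heart points lie right of 0, 23 of 28 kidney points do and 9 of 29 brain points do, and 3 points, all in heart, are filled.

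Whether tissues differed in their change from day 0 was tested directly in a joint limma fit of 26 arrays. Heart minus kidney gave 0 called of 29 on days 1, 3 and 7, with 2, 10 and 3 at an unadjusted p under 0.05, beside 2715, 1261 and 682 of all 14715 genes. Over all genes, 0.958% were higher and 2.51% lower on day 1, 0.034% and 0.0204% on day 3, and 0.0136% and 0.0136% on day 7. Col8a1 was nearest on day 3, at 1.55 ± 0.40 (SE, adjusted p = 0.218), followed by Col5a1 at 1.09 ± 0.35 (SE, adjusted p = 0.333) and Lox at 1.69 ± 0.55 (SE, adjusted p = 0.337). Values of this size neither passed nor show that the tissues acted alike. Without day 3 heart replicate 1, 3 genes were called on day 3 (Col5a1, Col8a1 and Loxl3), beside 99 of all genes. Without day 1 heart replicate 3, 2 were called on day 1, beside 1699 of all genes. On day 1 the smallest p belonged to Plod2, at 0.75 ± 0.27 (SE, adjusted p = 0.126), and on day 7 to Col8a1, at 1.36 ± 0.40 (SE, adjusted p = 0.739).

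Heart minus brain on day 3 gave 3 called higher of 30 and 0 lower, beside 0.468% and 0.254% of all genes. They were Col8a1 at 2.31 ± 0.40 (SE, adjusted p = 0.0111), Pcolce at 1.39 ± 0.28 (SE, adjusted p = 0.0236) and Col18a1 at 1.42 ± 0.32 (SE, adjusted p = 0.0431). For Col8a1 heart differed from day 0 by 2.01 and brain by -0.30, and for Pcolce heart by 1.03 and brain by -0.36. For Col18a1 the larger part was in brain, at -1.03, against 0.39 in heart, and the choroid plexus sums above move with it; their part was not tested. Col8a1 passed in 10 of 10 fits that left out an array, Pcolce in 5 and Col18a1 in 3. Without heart day 3 replicate 1 the count was 16, beside 305 of all genes. It was 1 without heart day 0 replicate 1 or 2 or day 3 replicate 2 or 3, beside 37, 38, 36 and 50. Col1a1 had the largest difference, 3.07 ± 0.81 (SE, adjusted p = 0.0868), and did not pass. Its heart part was 1.76. In brain it read 501 on day 0 replicate 2 and 44.0 to 63.3 on the other arrays, and the part of that array was not tested. On day 7 limma called 0, beside 0.0802% higher and 0.254% lower of all genes. An unadjusted p under 0.05 was found for 12 of 30, beside 1653 of 14959. Col8a1 was at 1.74 ± 0.40 (SE, adjusted p = 0.0797).

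Vessel had 1 array a day, so that its differences have no test and no replicate check. After 1 day 26 of 30 genes were below day 0, with a median of -0.42 beside 0.04 over all genes. The 4 above it were Col8a1, Col8a2, Col12a1 and P4ha3. Col1a2 alone was at least 2-fold lower, at -1.01; 0.756% of all genes were 2-fold lower and 0.651% 2-fold higher. On day 3 all 30 were above day 0, with a median of 0.80, and 11 were at least 2-fold higher, beside 4.78% of all genes. On day 7 all 30 were again above day 0, with a median of 0.98 and 15 at least 2-fold higher, beside 4.13%. None was 2-fold lower on days 3 and 7, beside 1.29% and 1.22%.

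The largest differences from day 0, all at day 7, belonged to Col8a1, Col12a1, Lox, Plod2, Col5a1 and Col5a2. Col8a1 read 212, 250.2, 1737 and 2849.9 on days 0, 1, 3 and 7, or 2.94 at day 3 and 3.65 at day 7. Col12a1 read 75.2, 96.6, 343 and 909.9, with 3.34 at day 7; its second probe set gave 0.96 and the other 2 stayed within 0.15 of day 0. Lox read 513, 362, 2925 and 4049, with 2.94 at day 7. In all 3 the day 7 array was the highest of the 4.

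Plod2 read 198, 124, 518 and 947. Its day 7 difference was 2.17. Col5a1 read 614, 355, 2207 and 2615 and Col5a2 1622, 1141, 6228 and 6755, with most of the day 7 difference present on day 3. Type I and III chains were lower on day 1 and much closer to each other on days 3 and 7 than to day 0: Col3a1 read 9125, 4929.8, 17919 and 17608 and Col1a1 1150.2, 641, 4002 and 4638. Col1a2 and Col3a1 reached 14993 and 17919, where the highest value of any gene on any array was 22424. Their second brightest probe sets gave day 3 differences of 2.13 for Col1a2 and 2.82 for Col3a1, against 1.01 and 0.97 for the brightest.

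By role, 4 of 6 fibrillar chains were at least 2-fold higher on day 3 and 5 on day 7. Of 4 basement membrane chains 1 was on both days (Col15a1, with 232, 158, 489 and 643), and Col4a2 was among the smallest, with 0.29 and 0.34. Of 7 hydroxylase and chaperone genes, 1 was 2-fold higher on day 3 and 4 on day 7. Serpinh1 read 2281, 2001, 3263 and 4809.7, and the prolyl hydroxylase subunit P4ha1 read 133, 121, 163 and 311. The median of these 7 was 0.48 on day 3 and 1.07 on day 7. The 2 propeptide genes had medians of 0.72 and 0.74, and of 3 lysyl oxidases 2 were 2-fold higher on both days. Of the 21 further synthesis genes 9 were at least 2-fold higher on day 7, with a median of 0.96, while the 18 further collagen chains had a median of -0.06.

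**Figure D5:**
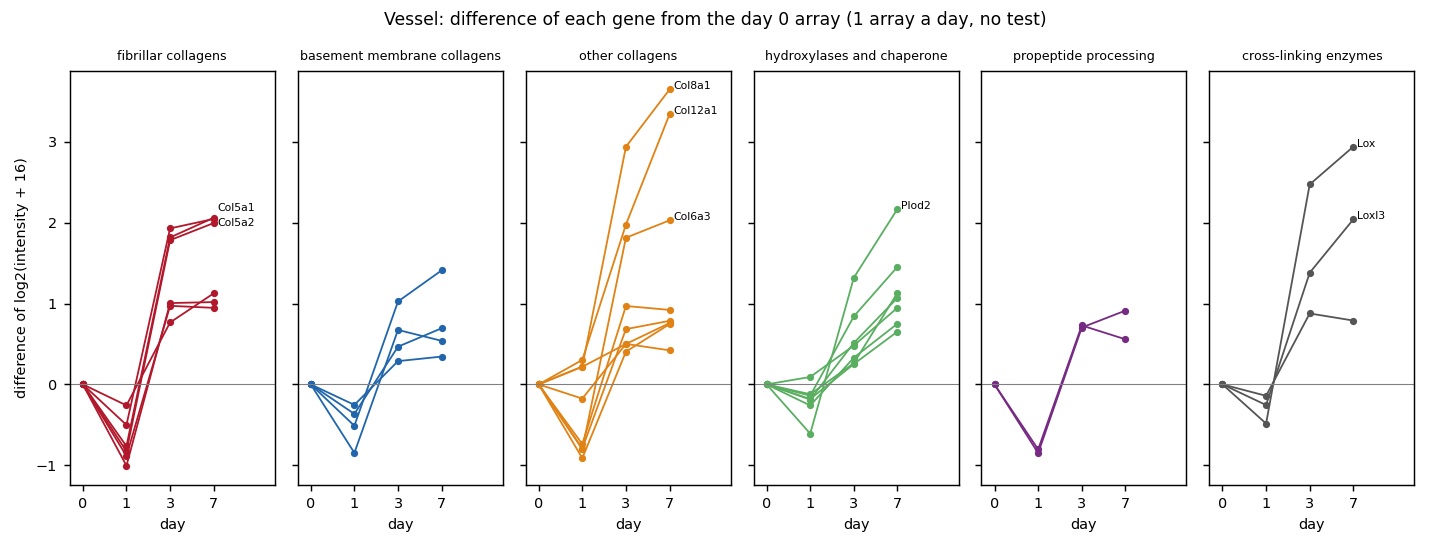
Difference of each of 30 genes from the day 0 vessel array in log2(intensity + 16), in 6 panels by role, with 1 array on each of days 0, 1, 3 and 7, evenly spaced, and no error that can be given. Lines dip on day 1 in 26 genes and end above 0 in all 30, with Col8a1, Col12a1 and Lox the highest on day 7 at 3.65, 3.34 and 2.94.

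The vessel arrays differed in what other tissue they carried. The 8 cardiomyocyte markers summed to 16083, 8768, 1886 and 15284 on days 0, 1, 3 and 7, with Myh6 at 4366, 2415, 324 and 3712. Adipocyte markers were bright on all 4, with Ucp1 of brown fat at 22424, 21637, 19400.4 and 11558. The 5 neuronal markers summed to 181, 199.6, 2167 and 290.5, the 7 macrophage markers to 4546, 5265, 13106 and 10072, and the 6 smooth muscle markers to 19313, 13104, 15843 and 14433. The 6 activated fibroblast markers summed to 18768, 15965, 23956 and 25509. The part of tissue makeup in these differences was not tested, and with 1 array a day it cannot be told apart from the infusion.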

How the data were processed

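Per the labels, whole tissue RNA was hybridised to Affymetrix Mouse Genome 430 2.0 arrays. The authors deposited 1 table of linear intensity values per probe set, and the submitters' processing notes name Affymetrix Expression Console. Its version and summary method were not given in the sources used here. Of 45101 probe sets, 34945 carried a single symbol. The probe set with the highest mean of log2(intensity + 16) over all 30 arrays stood for its gene, which leaves out splice forms it does not cover. Genes above the 40th percentile of an array, on as many arrays as the smallest group of the tissue, were tested with limma 3.58.1 in R 4.3.3, with Benjamini-Hochberg adjustment over all genes and a threshold of 0.05. Each tissue was fitted alone on the groups labelled by day. A joint fit of 26 arrays tested tissue differences. Vessel had 1 array a day and was described by differences of at least 2-fold. Labels call the arrays replicates, and p-values measure only the spread between them.

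The text names genes that pass the threshold and, where there is none, 3 of lowest p. Per-array values follow a wider rule of up to 4 genes of lowest p outside heart, and heart genes short of the threshold were added by role. Members and lists were chosen with earlier results of these data known. Deviations of same-numbered arrays from their group means correlated between -0.33 and 0.15 in heart, -0.09 and 0.24 in kidney and -0.64 and 0.48 in brain, so that the numbers were not used as pairs. No 2 arrays held identical values. Tests were tried on simulated data. In heart at day 3, 89.6% of genes changed 2-fold were recovered, against 82.1% in kidney and 56.7% in brain. The simulated noise was independent between arrays, with a single spread per gene pooled over all tissues. Shifts shared by the genes of an array and a spread particular to a tissue were left out. These shares therefore do not measure how many real changes were found. Alternatives changed the filter, the added value, the normalization, the probe set rule, the block, the groups in the fit and the arrays left out. Figures used matplotlib 3.10.9.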

Additional observations from a re-analysis of the deposited data

Results flagged for a closer look

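In a joint limma fit, 3 genes differed between heart and brain in their change from day 0 to day 3. Col8a1 differed by 2.31, Col18a1 by 1.42 and Pcolce by 1.39 on the log2 scale, heart minus brain. The signs of heart and brain were opposite for all 3. The choroid plexus markers Kl and Kcnj13 were called in the same comparison, at 1.92 and 1.85, and their part in the Col18a1 value was not tested.

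At day 1, Col4a2 was above every day 0 heart in all 3 hearts, with a difference of 0.73, while the single vessel array differed from day 0 by -0.25. This difference between heart and vessel was not tested, since vessel had 1 array a day.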

How the results depend on the processing

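Of 3413 alternatives of 247 single values, 3069 kept direction and side of the threshold, 223 lost and 120 gained the call, and 1 turned direction: Col5a1 in brain at day 7, which was 0.070 with the mean of all probe sets. The cause was not tested. Counts of called genes in heart depended on the setting. At day 1 limma called 1 without a filter, with an added value of 64 or with the mean of all probe sets, beside 1681, 1974 and 1784 of all genes. It called 5 in the joint fit, beside 2274, against 2 beside 1886. At day 3 it called 0 under those first 3 settings and with a replicate block, beside 7 each. Quantile normalization gave 5, beside 24, and the joint fit 8, beside 122, against 3 beside 12. At day 7 it called 1 in the joint fit, beside 21, and 8 with the day 7 and day 0 hearts alone, beside 173, against 0 beside 7. Day 3 against day 1 gave 14 after quantile normalization, beside 807 of all genes, and 0 with those groups alone, beside 0, against 9 beside 604. Day 7 against day 1 gave 2 without a filter, with the mean of all probe sets or with a replicate block, beside 486, 537 and 424, against 4 beside 691. Same-numbered arrays share only a number. With the replicate block limma called 8 genes over any day in heart, beside 455, against 12 beside 920. It called 8 at day 3 against day 1, beside 351. In brain at day 3 the joint fit called 1, beside 397, against 0 beside 0. In vessel at day 1 the number 2-fold lower was 0 with an added value of 64 and 2 with the mean of all probe sets, against 1. With 1 array left out, counts ranged over 2 to 22 for any day in heart, 0 to 5 at day 1, 0 to 19 at day 3, 0 to 19 for day 3 against day 1, 0 to 5 for day 7 against day 1 and 0 to 3 for day 7 against day 3. The counts over all genes in those fits ranged over 51 to 2671, 405 to 3441, 1 to 258, 0 to 2049, 11 to 2482 and 0 to 63, in that order. For the difference between heart and kidney the range was 0 to 2 at day 1 and 0 to 3 at day 3, and for that between heart and brain 1 to 16 at day 3 and 0 to 2 at day 7. At day 0 the ranges were 15 to 22 for heart against kidney, 24 to 26 for heart against brain and 16 to 21 for kidney against brain, in both directions together. Other comparisons against day 0 stayed at 0. Quantile normalization moved the median of all genes by at most 0.055.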

Other observations

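Other chains and enzymes of the pathway differed between later hearts and day 1, in comparisons that share the day 1 hearts with those of the report. The type IV chain Col4a4 was higher at day 3 than at day 1 by 0.85 and at day 7 by 1.27 on the log2 scale, and Col4a3 was higher at day 7 by 0.56. Adamts3, which removes N-propeptides, was higher by 0.74 and 0.77, and Sparc, a matrix protein that binds collagen, by 0.75 at day 3. These passed an adjusted p of 0.05 in limma. In the joint fit, heart minus kidney at day 1 was -1.04 for Col13a1, a transmembrane collagen, -0.99 for Col27a1, a fibrillar chain, and 0.72 for P4hb. Heart minus brain at day 3 was 1.07 for Col4a5. All 4 passed the same threshold.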
